A study of Homo sapiens with 16 samples.

Results

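Chromosome 8 carries a short arm and a long arm on either side of its centromere, and 53 of its genes were followed here along that order, 27 from MCPH1 to FGFR1 on the short arm and 26 from UBE2V2 to PUF60 on the long arm. The genes were selected on position, and the difference between hypoxia-resistant and parental RPMI8226 cells, in which chromosome 8 was already known to lean downward, was put first when the list was made. For these genes that difference is therefore a description, without a test, whereas the levels in parental cells and the changes in the other lines were tested. Of the 53 genes, 51 had a probe set of their own, and 50 of these, 25 on each arm, were bright enough to test among 12639 genes in all. MCPH1, a regulator of chromosome condensation, and UBE2W, a ubiquitin-conjugating enzyme, were not analysed here. FGFR1, a fibroblast growth factor receptor, lay below the filter level of 6.27 on all 16 arrays, at 5.28 to 5.81 on the log2 scale, and was not tested.

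Transcript levels of 4 human lines were read on Affymetrix expression arrays. The groups were RPMI8226-HR, KMS-11-HR, U266-HR and IM-9-HR, hypoxia-resistant (HR) cells grown for 24 hours at 1% oxygen, and the parental RPMI8226, KMS-11, U266 and IM-9 cells, grown for 24 hours at 20% oxygen, with 2 arrays in each of the 8 groups. RPMI8226, KMS-11 and U266 are established multiple myeloma lines, myeloma being a cancer of plasma cells; IM-9 carries the same label, but is generally known as a lymphoblastoid B cell line that carries Epstein-Barr virus. Since every HR array is from 1% oxygen and every parental array from 20%, resistance and the oxygen at harvest cannot be told apart. Each parent is represented by 1 HR line, and DNA was not measured. The labels leave unsaid if both arrays of a group hold RNA of separate cultures, so p-values measure the spread between these arrays, which may be technical.

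Pearson's r over all probe sets was 0.9925 to 0.9962 between the arrays of a group. It was 0.9836 to 0.9945 between HR and parental arrays within a line and 0.9147 to 0.948 between lines. Plasma cell markers were present in every group, with 7 to 8 of 9 above the filter level and a summed log2 level of 83.87 to 89.59. B cell markers ranged more widely, with 2 to 8 of the 8 measured above the filter level and sums of 45.57 to 75.63. Of 5 myeloid markers 0 were above it in any group, and 1 to 2 of 6 T and NK cell markers and 1 to 2 of 5 stromal markers were.

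Genes of a chromosome arm share no common pathway. They are read together because a gain or loss of chromosomal material changes the dose of many neighbouring genes at once, and transcript levels of neighbours often follow that dose. In myeloma, losses on the short arm of chromosome 8 and rearrangements on its long arm are recurrent. The listed genes encode mostly housekeeping proteins: subunits of large complexes (Integrator, the RNA exosome, cohesin, dynactin), lipid enzymes, DNA repair proteins, kinases and ubiquitin enzymes.

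In RPMI8226 the listed genes of the long arm lay lower in HR cells than in parental cells, whereas those of the short arm lay on both sides of 0. The long arm had a median HR minus parental difference of -0.25 on the log2 scale, with 22 of 25 genes below 0. The short arm had a median of -0.003, with 13 of 25 below 0, and all 12639 tested genes had a median of -0.01. Among the 397 chromosome 8 genes that were not listed, the 268 of the long arm had a median of -0.18, with 203 below 0. The 129 unlisted genes of the short arm had a median of -0.08, with 83 below 0, so they leaned downward too. The arms thus lay closer together among unlisted than among listed genes, a difference that was not tested. Among listed genes 12 of the long arm passed the threshold as lower and 0 as higher, and 8 of the short arm as lower and 1 as higher, against 15.3% lower and 10.7% higher among all tested genes. Nothing is read from those counts, since this contrast chose the list. Over the 4 pairings of an HR with a parental array, the long-arm median ranged from -0.36 to -0.19 and the short-arm median from -0.09 to 0.00.

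**Figure D1:**
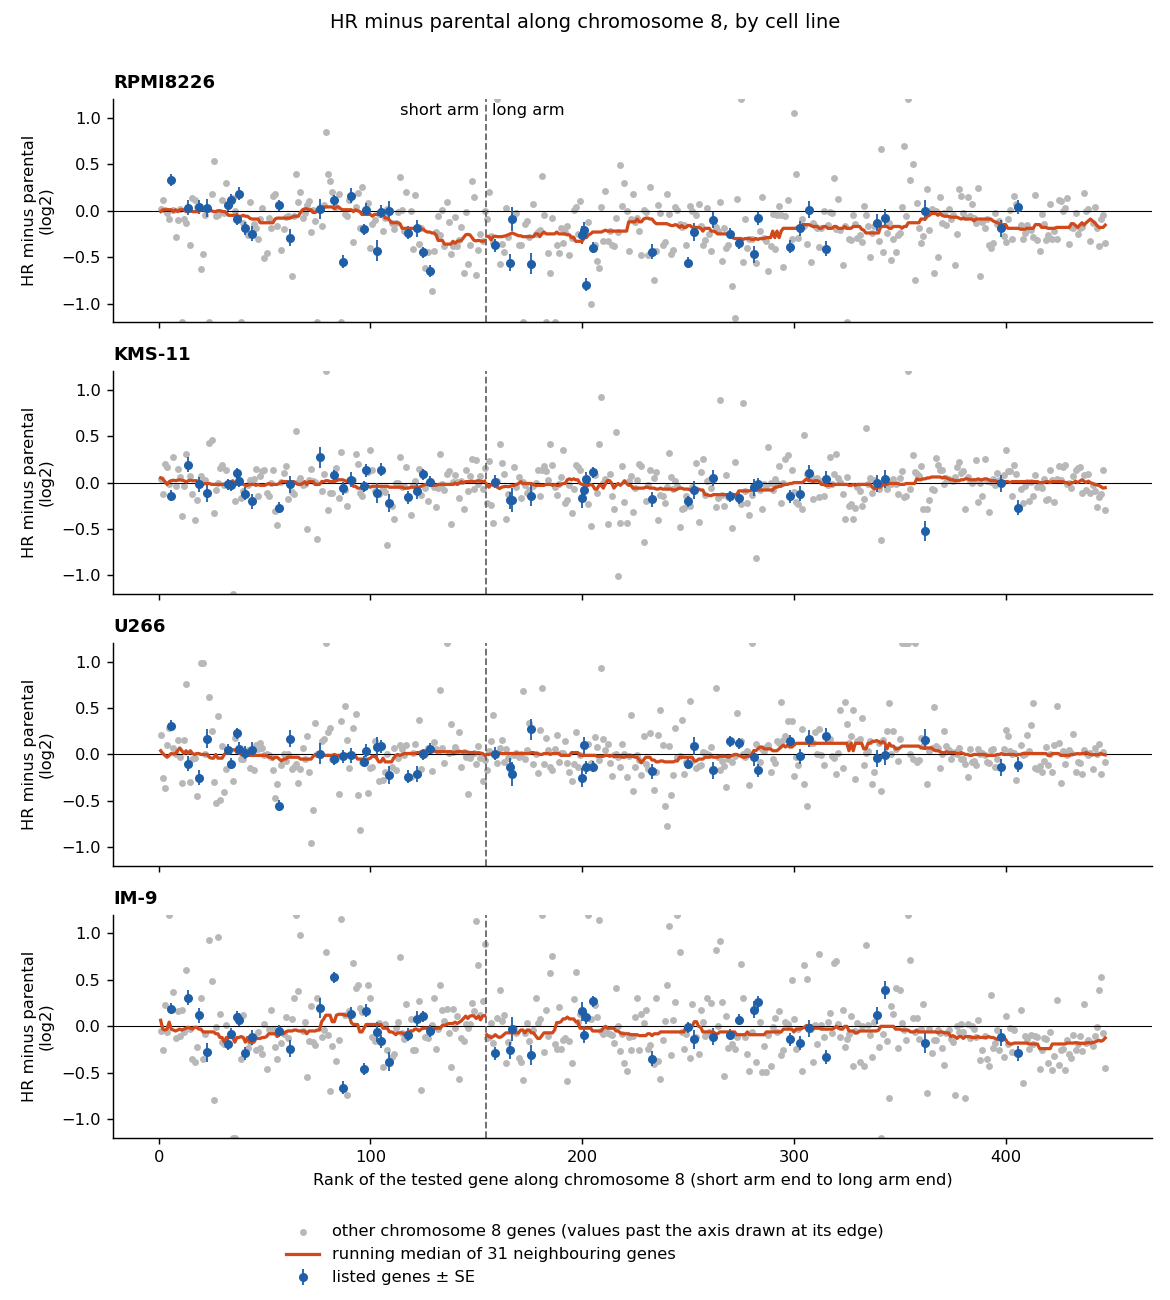
HR minus parental log2 difference (vertical axis) of each tested chromosome 8 gene in its order along the chromosome (horizontal axis, rank from the end of the short arm to the end of the long arm), with a panel for each line. Blue points are the 50 listed genes with their SE, grey points the 397 other genes, and the orange line a running median of neighbouring genes. In RPMI8226 the line runs near 0 over most of the short arm and below 0 from the last part of the short arm onward, while in KMS-11 and U266 it stays near 0.

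The 4 listed short-arm genes that lay lowest in RPMI8226-HR were DDHD2, CCDC25, ASH2L and DCTN6. DDHD2, a phospholipase of intracellular membranes, was at 7.65 and 7.66 in RPMI8226-HR against 8.28 and 8.32 in parental cells, a difference of -0.65 ± 0.06 (SE, n = 2 arrays each). CCDC25, a coiled-coil protein, was at 7.38 and 7.30 in HR against 7.90 and 7.88 in parental cells (-0.55 ± 0.07). For both genes the HR arrays lay well below the parental arrays, with a gap several times the distance between arrays of a group. ASH2L, a core subunit of the COMPASS histone methyltransferases, was at 8.98 on both HR arrays against 9.50 and 9.36 (-0.45 ± 0.06). DCTN6, a subunit of the motor adaptor dynactin, was at 7.78 and 7.80 in HR against 8.09 and 8.34 in parental cells (-0.43 ± 0.11), the widest parental spread of the 4. At the other end, AGPAT5, which makes phosphatidic acid, was at 9.02 and 8.92 in HR against 8.67 and 8.62 in parental cells (0.33 ± 0.06), and ASAH1, the lysosomal acid ceramidase, was at 9.61 and 9.56 against 9.45 and 9.37 (0.18 ± 0.07). HR arrays of these last genes stood above the parental arrays without overlap.

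On the long arm, ARFGEF1, an exchange factor for ARF proteins of the Golgi, differed most, with 6.98 and 7.15 in RPMI8226-HR against 7.82 and 7.91 in parental cells (-0.80 ± 0.07, or 0.574 times the parental level). CHCHD7, a small mitochondrial protein, was at 6.41 and 6.30 in HR against 6.88 and 6.97 (-0.57 ± 0.11). LYPLA1, which removes palmitate from proteins, was at 9.52 and 9.69 in HR against 10.05 and 10.28 (-0.56 ± 0.09). DECR1, a mitochondrial reductase of unsaturated fatty acid oxidation, was at 8.26 and 8.28 in HR against 8.77 and 8.87 (-0.56 ± 0.06). HR and parental arrays of these 4 genes did not overlap. The long-arm genes that stood highest did not separate: EXOSC4, a subunit of the RNA exosome, was at 10.51 and 10.54 in HR against 10.58 and 10.39 (0.04 ± 0.08), and EIF3E, a subunit of translation initiation factor eIF3, at 9.82 and 9.86 against 9.75 and 9.91 (0.01 ± 0.09). Other listed long-arm genes past the threshold, named as a description only, were STK3, a Hippo pathway kinase (-0.47), ZFAND1 (-0.44), the cohesin subunit RAD21 (-0.41), the coactivator NCOA2 (-0.40), AZIN1 (-0.39), UBE2V2 (-0.37), MTDH (-0.35) and the phosphatidylserine synthase PTDSS1 (-0.25). No listed gene changed by 1 log2 unit or more in any of the 4 lines.

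In gene order, low values were not limited to the long arm. Blocks of about 30 neighbouring tested genes, listed or not, had RPMI8226 medians of -0.01, -0.09, 0.04 and -0.10 in the first 4 blocks of the short arm and -0.35 in the block next to the centromere, from ASH2L to HGSNAT, where 25 of 30 genes lay below 0. The 10 blocks of the long arm had medians of -0.31 to -0.06. When the chromosome was divided at ASH2L, a place chosen after the values were seen, the 23 listed genes before it had a median of 0.01 with 11 below 0. The 27 listed genes from ASH2L to the end had a median of -0.26 with 24 below 0, and the 296 unlisted genes there had -0.19 with 226 below 0. Just before that place lay ERLIN2, an endoplasmic reticulum protein (-0.24), and BRF2, an RNA polymerase III factor (-0.19), so low values also occur before it, and the sides on which ASH2L and DDHD2 fall are set by that choice. In addition, 2 blocks of the long arm, at -0.08 and -0.06, were no lower than short-arm blocks at -0.09 and -0.10. CCDC25, at -0.55, lay further out in a block with a median of 0.04.

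Chromosome 8 was not alone in this line. Its 447 tested genes had an RPMI8226 median of -0.15, rank 3 from the lowest of 23 chromosomes after chromosome 13 (-0.31) and chromosome 20 (-0.20), with 34.9% lower and 4.70% higher. Of the 15 blocks of chromosome 8, 4 had a median below -0.2, as did 22 of 410 blocks of other chromosomes, whose medians ran from -0.48 to 0.34. Counted from the lowest, chromosome 8 had rank 13 for KMS-11 (median -0.02), rank 18 for U266 (0.00) and rank 7 for IM-9 (-0.07).

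**Figure D2:**
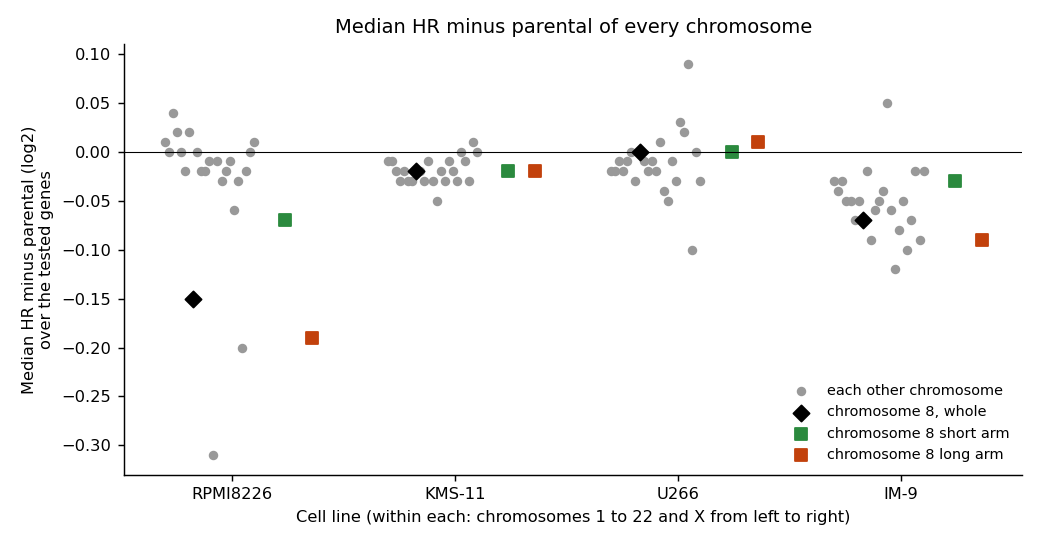
Median HR minus parental log2 difference over the tested genes of each chromosome (vertical axis), by cell line (horizontal axis). Grey points are the other chromosomes from 1 to X, the black diamond is chromosome 8, and the squares are its arms over all their tested genes. Chromosome 8 stands at -0.15 in RPMI8226, with chromosomes 13 and 20 lower, and within the range of the other chromosomes in the other 3 lines.

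In the other 3 lines the long-arm median lay closer to the median of all tested genes than in RPMI8226, while the listed short-arm genes had a median within 0.03 of it in all 4 lines. In KMS-11 the listed genes had medians of -0.02 on the short arm and -0.08 on the long arm, against -0.02 over all tested genes. In U266 the medians were 0.01 and -0.03, against -0.01, and in IM-9 -0.05 and -0.09, against -0.06. Over the 4 pairings of arrays the long-arm median spanned -0.14 to -0.04 for KMS-11, -0.09 to -0.03 for U266 and -0.16 to 0.05 for IM-9, so only in IM-9 did it include 0. Block medians on chromosome 8 ran from -0.13 to 0.02 in KMS-11, from -0.08 to 0.12 in U266 and from -0.18 to 0.08 in IM-9. Whether the arm medians differ between lines was not tested.

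**Figure D3:**
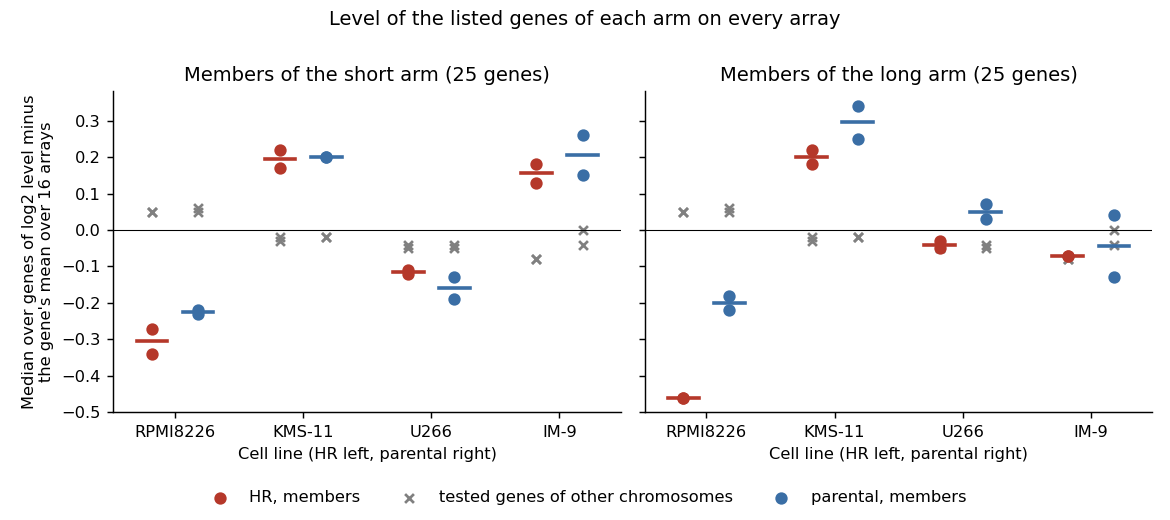
Median over the 25 listed genes of each arm of the log2 level minus the gene's mean over 16 arrays (vertical axis), for every array of the 4 lines (horizontal axis), with HR arrays in red to the left of parental arrays in blue and bars at the group means. Grey crosses give the same for tested genes of other chromosomes. The long-arm genes stood at -0.46 on both RPMI8226-HR arrays against -0.22 and -0.18 on the parental arrays.

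On single arrays, the long-arm level relative to each gene's mean over all arrays was -0.46 on both RPMI8226-HR arrays, against -0.22 and -0.18 on the RPMI8226 parental arrays. The short-arm level was -0.34 and -0.27 in RPMI8226-HR, against -0.23 and -0.22 in parental cells. KMS-11 stood highest on the long arm, at 0.18 and 0.22 in HR against 0.25 and 0.34 in parental cells, and the HR arrays lay below the parental arrays there too. In U266 the long-arm level was -0.03 and -0.05 in HR against 0.07 and 0.03, and in IM-9 it was -0.07 on both HR arrays against -0.13 and 0.04. Only in IM-9 did HR and parental arrays overlap on the long arm.

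In KMS-11, 2 listed genes fell and 0 rose in HR cells, against 5.83% lower and 2.44% higher among all tested genes. PTK2, the focal adhesion kinase, was at 6.16 and 6.35 in KMS-11-HR against 6.87 and 6.68 in parental cells, a fall of -0.52 ± 0.11 (adjusted p = 0.012, limma). PTK2 is the dimmest of the 50 listed genes that were tested, with a mean of 5.73 over 16 arrays, below the filter level. PPP3CC, the gamma catalytic subunit of the phosphatase calcineurin, was at 7.82 and 7.83 in HR against 8.07 and 8.11 (-0.27 ± 0.06, adjusted p = 0.024, limma). Neither pair of groups overlapped. Without parental array 1 the PTK2 difference was -0.43 (adjusted p = 0.115, limma) and without HR array 1 -0.42 (adjusted p = 0.118, limma), and for PPP3CC leaving out any of the 4 arrays gave an adjusted p of 0.0936 to 0.15 in limma, with differences of -0.28 to -0.25. Without the filter on low values the adjusted p of PPP3CC was 0.052 (limma).

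In U266, 3 listed genes fell and 2 rose, all on the short arm, against 8.42% lower and 9.68% higher among all tested genes. PPP3CC was again lower, at 8.25 and 8.30 in U266-HR against 8.85 and 8.81 in parental cells (-0.55 ± 0.06, 0.683 times the parental level, adjusted p = 5.3e-05, limma). MTMR9, an inactive member of the myotubularin lipid phosphatases, was at 7.09 and 7.04 in HR against 7.35 and 7.28 (-0.25 ± 0.08, adjusted p = 0.043, limma), and ERLIN2 at 7.08 and 7.06 against 7.38 and 7.25 (-0.24 ± 0.07, adjusted p = 0.038, limma). AGPAT5 rose, with 9.61 and 9.57 in HR against 9.29 and 9.26 in parental cells (0.31 ± 0.06, adjusted p = 0.002, limma). PCM1, a scaffold of centriolar satellites, also rose, with 10.14 and 10.15 in HR against 9.92 on both parental arrays (0.23 ± 0.06, adjusted p = 0.021, limma). HR and parental arrays of these 5 genes did not overlap. The calls of MTMR9 and PCM1 were lost without any 1 of the 4 U266 arrays (adjusted p of 0.0906 to 0.213 and of 0.0879 to 0.109, limma) and that of ERLIN2 without parental array 1 or either HR array (0.127 to 0.254, limma), with differences of -0.29 to -0.21, 0.22 to 0.23 and -0.25 to -0.18. MTMR9 and ERLIN2 also missed the threshold without the filter (0.0717 and 0.066), with quantile normalization again (0.0697 and 0.064) and with a trended and robust variance prior (0.0594 and 0.0745), MTMR9 with each line centred on its median (0.0523), and ERLIN2 in a fit of the U266 arrays alone (0.0598).

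IM-9 held the most calls outside RPMI8226, with 12 listed genes lower and 6 higher, against 21.3% lower and 14.4% higher among all tested genes, and the calls were split evenly between the arms. CCDC25 fell, with 8.14 and 8.16 in IM-9-HR against 8.73 and 8.88 in parental cells (-0.66 ± 0.07, 0.635 times the parental level, adjusted p = 1.2e-05, limma). INTS9, a subunit of the Integrator complex, which cleaves nascent RNA, was at 8.17 and 8.23 in HR against 8.70 and 8.62 (-0.46 ± 0.06, adjusted p = 1.0e-04, limma). WRN, a RecQ helicase of DNA repair, was at 7.86 and 7.98 in HR against 8.15 and 8.45 (-0.38 ± 0.10, adjusted p = 0.0088, limma). ZFAND1, a protein of stress granule clearance, was at 9.41 and 9.43 in HR against 9.67 and 9.87 (-0.35 ± 0.08, adjusted p = 0.0055, limma). In each of these genes both HR arrays lay under both parental arrays. The other 8 falls were of RAD21 (-0.33), CHCHD7 (-0.31), UBE2V2 (-0.29), the Integrator subunit INTS10 (-0.29), EXOSC4 (-0.29), the DNA glycosylase NEIL2 (-0.28), LYPLA1 (-0.26) and the deadenylase CNOT7 (-0.19), NEIL2 with the largest adjusted p among them (0.04997, limma).

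Among the 6 IM-9 rises, PTK2B, a calcium-responsive relative of the focal adhesion kinase, was at 10.59 and 10.57 in IM-9-HR against 10.03 and 10.07 in parental cells (0.53 ± 0.06, 1.45 times the parental level, adjusted p = 1.6e-05, limma). NSMCE2, the SUMO ligase of the SMC5/6 complex, was at 8.51 and 8.56 in HR against 8.01 and 8.28 (0.39 ± 0.10, adjusted p = 0.0079, limma). TNKS, the poly-ADP-ribose polymerase tankyrase, was at 8.30 and 8.28 in HR against 7.88 and 8.09 (0.31 ± 0.08, adjusted p = 0.010, limma). NCOA2 was at 8.62 and 8.68 in HR against 8.35 and 8.41 (0.27 ± 0.06, adjusted p = 0.0054, limma), and VPS13B (0.26) and AGPAT5 (0.19) were the other rises. All 4 genes given by array separated HR from parental arrays. The calls of NSMCE2, TNKS and WRN were lost with either of 2 single arrays left out. Without parental array 1 the NSMCE2 difference was 0.25 and that of TNKS 0.20, and without parental array 2 that of WRN was -0.23. Without HR array 2 the NSMCE2 difference was 0.36, and without HR array 1 those of TNKS and WRN were 0.3 and -0.32. In a fit of the IM-9 arrays alone 7 listed genes passed in place of 18, and the lost calls included those of NCOA2 (adjusted p = 0.0539, limma), NSMCE2 (0.0549), TNKS (0.0705) and WRN (0.0756), at the same differences. Without HR array 1, 8 listed genes passed and without HR array 2, 11.

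**Figure D4:**
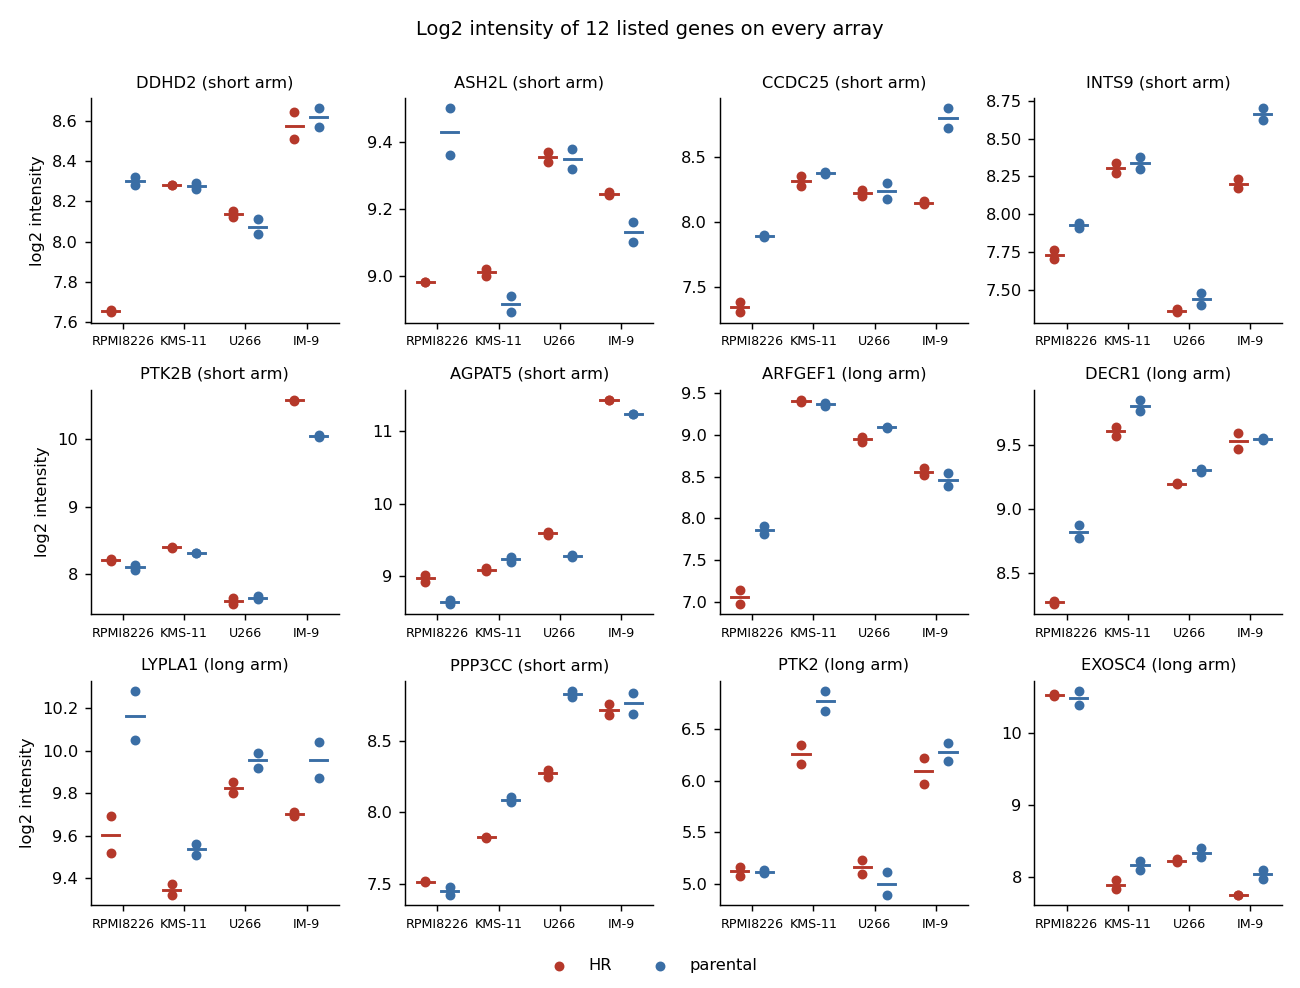
Log2 intensity (vertical axis, a separate range in each panel) of 12 listed genes on every array of the 4 lines (horizontal axis), with HR arrays in red to the left of parental arrays in blue and bars at the group means. DDHD2, ASH2L and ARFGEF1 separate HR from parental arrays widely in RPMI8226, PTK2B does so in IM-9, and PPP3CC in U266 and KMS-11.

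Over KMS-11, U266 and IM-9, the lines whose contrast was not put first, 27 listed genes passed the threshold in no line, 21 in 1 line, 2 in 2 lines and 0 in all 3. Among all tested genes the shares were 52.7%, 34.6%, 10.7% and 1.99%, and among the listed genes 54%, 42%, 4% and 0%. The genes called in 2 of these lines were AGPAT5, higher in HR cells of U266 and IM-9, and PPP3CC, lower in HR cells of KMS-11 and U266. AGPAT5 stood at 9.11 and 9.07 in KMS-11-HR against 9.20 and 9.27 in parental cells (-0.14, adjusted p = 0.176, limma). As a description beside these, RPMI8226-HR also stood lower than its parent in CCDC25, INTS9, UBE2V2, LYPLA1, CHCHD7, ZFAND1 and RAD21, which fell in IM-9-HR, and in ERLIN2, which fell in U266-HR. NCOA2 was at 8.03 and 7.97 in RPMI8226-HR against 8.35 and 8.44 in parental cells, whereas it rose in IM-9-HR. Below 0 in all 4 lines were 10 genes (CCDC25, INTS9, WRN, ERLIN2, LYPLA1, MRPL15, ZFAND1, DECR1, DCAF13 and PUF60), against 11.0% of all tested genes, and above 0 in all 4 were ASAH1, KCTD9 and HMBOX1, against 5.48%. The 4 lines include RPMI8226, whose contrast was put first when the list was made, so nothing is read from these counts. Of the genes without a call in KMS-11, U266 and IM-9, examples are the glutathione reductase GSR, the Elongator subunit ELP3, the signalosome subunit COPS5 and the splicing factor PUF60.

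Whether the change in HR cells differed between KMS-11, U266 and IM-9 was asked with a moderated F test. The contrasts of these 3 lines were not put first when the list was made, but earlier results of these data were known. Neither this test nor the counts of calls by line are therefore independent of that choice. The F test called 14 of the 50 listed genes, against 33.2% of all tested genes. PTK2B, with differences of 0.08 for KMS-11, -0.05 for U266 and 0.53 for IM-9, had the smallest value (adjusted p = 0.000342, limma), followed by CCDC25 with -0.06, -0.02 and -0.66 (0.000374) and AGPAT5 with -0.14, 0.31 and 0.19 (0.00272). For PTK2B and CCDC25 the largest of the 3 differences was that of IM-9, a rise for PTK2B and a fall for CCDC25. With parental array 1 of KMS-11, either parental array of U266, HR array 2 of U266 or HR array 1 of IM-9 left out, 9 genes passed.

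Many listed genes belong to complexes whose other subunits lie on other chromosomes, and 14 such complexes or families were followed, together with the fibroblast growth factor receptors. Lists were chosen with earlier results known. Of 104 tested partners on other chromosomes, 16 were lower and 9 higher in RPMI8226-HR, with a median difference of -0.01. These are 15.4% and 8.65%, near the 15.3% and 10.7% of all tested genes. The counts were 5 and 0 in KMS-11 (4.81% and 0%, against 5.83% and 2.44% of all), 4 and 10 in U266 (3.85% and 9.62%, against 8.42% and 9.68%), and 26 and 13 in IM-9 (25% and 12.5%, against 21.3% and 14.4%). The medians were -0.07, 0.02 and -0.05. Counts within single complexes are read against the same shares and name members only. In RPMI8226, the chromosome 8 subunits of Integrator, INTS8, INTS9 and INTS10, had a median of -0.19, while the 12 partners elsewhere had 0.00, with INTS6 lower (-0.45) and INTS4 higher (0.38). ASH2L (-0.45) stood beside 8 COMPASS partners with a median of 0.04, of which SETD1B was lower (-0.30), and DCTN6 (-0.43) beside 9 dynactin partners with -0.08, of which DCTN4 (-0.33) and CAPZB (-0.29) were lower. RAD21 (-0.41) stood with cohesin genes of other chromosomes at a median of -0.01, of which STAG1 (-0.44), PDS5B (-0.36) and STAG2 (-0.23) were lower. PDS5B and INTS6 lie on chromosome 13, which had the lowest RPMI8226 median of the 23 chromosomes (-0.31). STAG1 lies on chromosome 3, which had the highest (0.04), and SETD1B, DCTN4, CAPZB and STAG2 on chromosomes 12, 5, 1 and X. Whether partners follow their chromosome was not tested.

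In IM-9, the 3 Integrator subunits of chromosome 8 had a median of -0.29, and among 12 partners elsewhere 5 fell and 2 rose, with a median of -0.09, in a line where 21.3% of all tested genes were lower and 14.4% higher. INTS2 (-0.43) and INTS12 (-0.36) were the lowest of those partners and INTS7 (0.34) the highest. EXOSC4 (-0.29) fell there with 4 of 10 RNA exosome partners, EXOSC7 (-0.60), EXOSC5 (-0.41), EXOSC10 (-0.31) and EXOSC8 (-0.29), and 0 rose. In U266, PPP3CC fell while the catalytic subunit PPP3CA rose (0.26) and 0 of the 3 calcineurin partners fell. In KMS-11, where 5.83% of all tested genes were lower, 3 of 10 exosome partners fell, EXOSC8 (-0.43), EXOSC3 (-0.28) and EXOSC2 (-0.25), and EXOSC4 was at 7.96 and 7.83 in HR against 8.23 and 8.10 in parental cells (adjusted p = 0.061, limma).

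Smaller complexes gave mixed pictures in IM-9, again beside 21.3% lower and 14.4% higher among all tested genes. WRN fell there with 1 of its 3 RecQ partners elsewhere, BLM (-0.31), and CNOT7 with 2 of 10 CCR4-NOT partners, CNOT6 (-0.45) and CNOT6L (-0.29). NSMCE2 rose while, among 5 SMC5/6 partners, SMC6 rose (0.44) and NSMCE4A fell (-0.49). Of 4 Elongator partners, which modify wobble uridines of tRNA together with ELP3, 3 fell, ELP5 (-0.44), ELP4 (-0.33) and ELP2 (-0.19), while ELP3 itself was at 9.19 and 9.26 in HR against 9.09 on both parental arrays (adjusted p = 0.233, limma). Of 8 signalosome partners of COPS5, 3 fell, led by GPS1 (-0.52), and 1 rose, and of 10 eIF3 partners of EIF3E 3 fell, led by EIF3I (-0.35). ESCRT-I partners of VPS37A numbered 6, with 2 lower, MVB12A (-0.36) and VPS37C (-0.24), and 1 higher, VPS37B (0.47). NEIL2 fell, and 0 of its 2 partner glycosylases passed. Of the 3 other fibroblast growth factor receptors tested, 0 passed in any of the 4 lines.

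The levels in parental cells, on which the list was not chosen, differed widely between lines. Each parental line was set against the mean of the other 3, with parental arrays that also enter the HR contrasts and with the 4 comparisons sharing all 8 parental arrays. In RPMI8226 15 short-arm genes were lower and 5 higher, and 14 long-arm genes were lower and 7 higher, against 36.4% lower and 43.4% higher among all tested genes. The medians were -0.44 on the short arm and -0.30 on the long arm, against 0.07 over all tested genes. The unlisted genes of the long arm leaned the other way, at a median of 0.26, with 80 of 268 lower and 142 higher, so the listed long-arm genes do not stand for the arm in this comparison. In KMS-11 the medians were 0.27 and 0.33, with 6 and 2 genes lower and 15 and 14 higher, against 36.4% lower and 34.9% higher among all genes. Its unlisted genes had medians of 0.13 on the short arm and -0.01 on the long arm. U266 had medians of -0.24 and 0.02, with 13 and 10 lower and 9 and 6 higher, against 41.2% lower and 33.3% higher, and its unlisted genes had -0.14 and -0.20. IM-9 had 0.30 and -0.08, with 4 and 12 lower and 14 and 8 higher, against 36.8% lower and 29.9% higher, and its unlisted genes had -0.02 and -0.05. The listed and unlisted medians thus lay more than 0.2 apart on the long arm of KMS-11 and U266 and on the short arm of IM-9, a difference that was not tested.

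**Figure D5:**
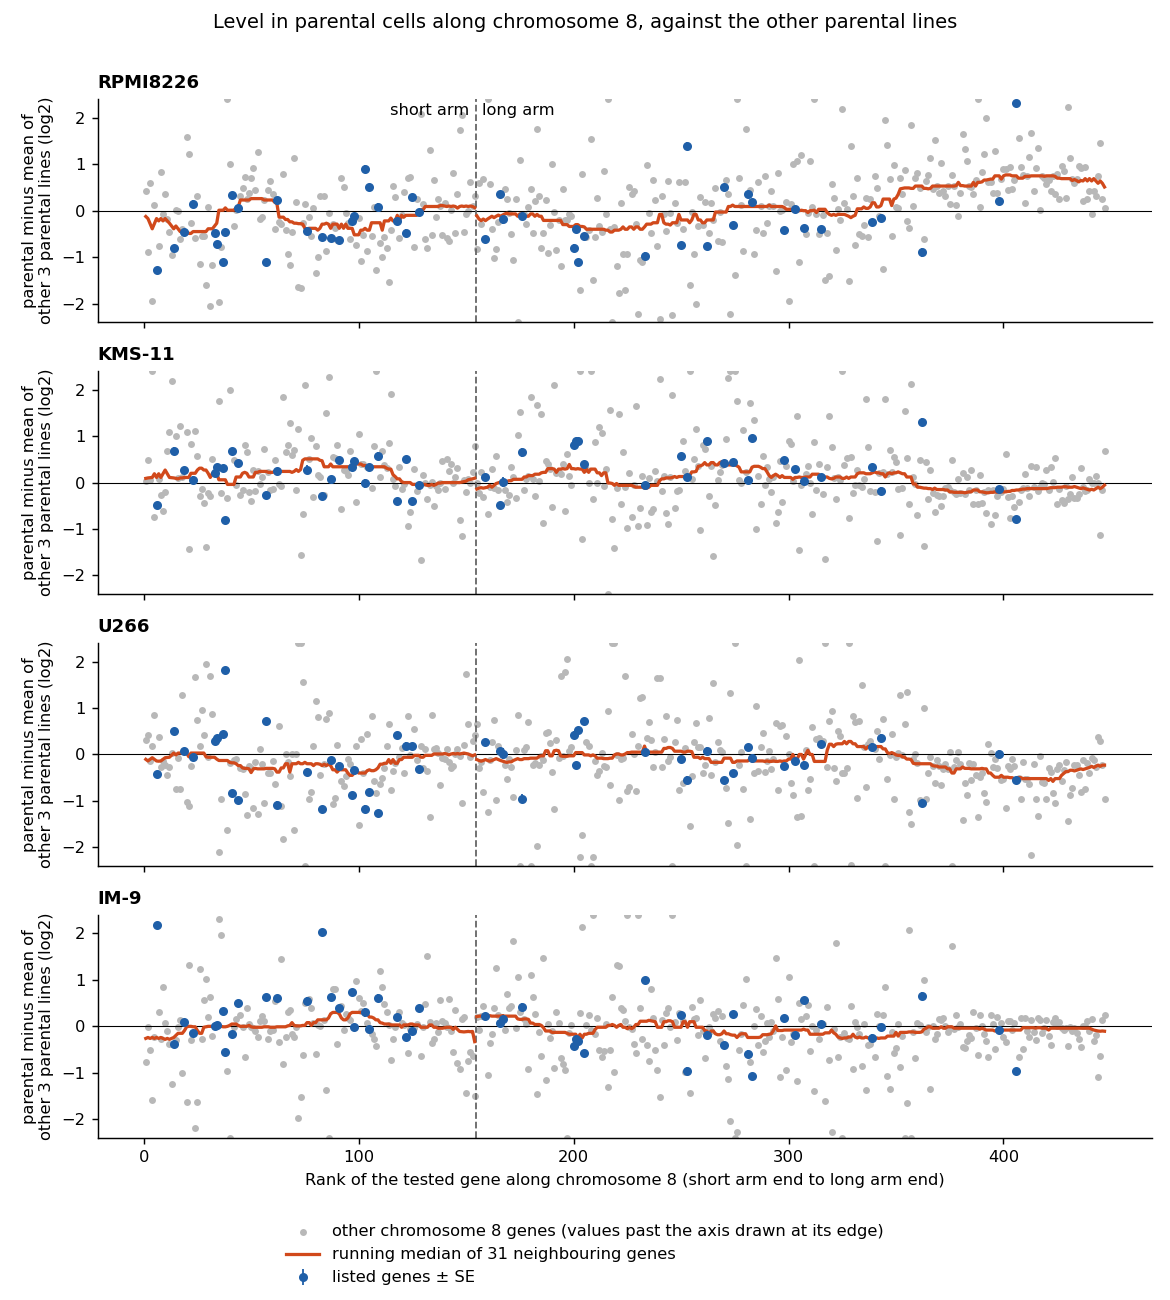
Level of each tested chromosome 8 gene in a parental line minus the mean of the other 3 parental lines (vertical axis, log2), in gene order (horizontal axis, rank from the end of the short arm to the end of the long arm), with a panel for each line. Blue points are the 50 listed genes, grey points the 397 other genes, and the orange line a running median. The line rises above 0 over the last part of the long arm in RPMI8226 and falls below 0 there in U266.

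In parental RPMI8226, EXOSC4 stood far above the other lines, at 10.58 and 10.39 against 8.23 and 8.10 for KMS-11, 8.28 and 8.40 for U266 and 8.10 and 7.98 for IM-9 (2.31 ± 0.07, adjusted p = 3.6e-12, limma). OTUD6B, a deubiquitinase, was also higher there (1.40 ± 0.08), while AGPAT5 (-1.27 ± 0.05) and ARFGEF1 (-1.11 ± 0.06) were lowest, with PCM1 and PPP3CC also at -1.11. For AGPAT5 the high IM-9 level is part of the mean that RPMI8226 was set against. RPMI8226, at 8.67 and 8.62, lay nearer to KMS-11, at 9.20 and 9.27, and U266, at 9.29 and 9.26. ARFGEF1 was at 7.82 and 7.91 in parental RPMI8226, against 9.35 and 9.38 for KMS-11, 9.10 and 9.08 for U266 and 8.39 and 8.54 for IM-9. Among the listed long-arm genes it had the lowest difference from the other parental lines, while the lowest of the 268 unlisted genes of that arm was at -2.94. The same difference in IM-9 was largest for AGPAT5, at 11.24 on both arrays against 8.62 to 9.29 on the parental arrays of the other lines (2.19 ± 0.05, adjusted p = 3.2e-13, limma), and for PTK2B, at 10.03 and 10.07 against 7.63 to 8.31 (2.03 ± 0.05, adjusted p = 5.0e-13, limma). IM-9 was lowest in VPS13B, a lipid transport protein of the Golgi (-1.08 ± 0.05), among these genes, then OTUD6B and EXOSC4 (both -0.96). For EXOSC4 the high RPMI8226 level is part of the mean that IM-9 was set against, and KMS-11 and U266 lay close to IM-9.

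KMS-11 was highest in PTK2, at 6.87 and 6.68 in parental cells against 4.89 to 6.37 in the other parental lines (1.31 ± 0.09), and in VPS13B (0.97 ± 0.05). Its lowest differences from the mean of the other lines were those of ASAH1 (-0.81 ± 0.06) and EXOSC4 (-0.79 ± 0.07). For EXOSC4 that mean holds RPMI8226 at 10.58 and 10.39, while KMS-11, at 8.23 and 8.10, lay above IM-9 at 8.10 and 7.98 by group mean and near U266 at 8.28 and 8.40. U266 was highest in ASAH1, at 11.17 and 11.07 against 9.11 to 9.45 in the other parental lines (1.82 ± 0.06), and in NCOA2 (0.73 ± 0.05). It was lowest in WRN, at 6.88 and 6.91 against 7.85 to 8.45 (-1.27 ± 0.08), and in DCTN6 (-1.18 ± 0.09). The adjusted p of each of these 8 differences was 1.9e-07 or less (limma). WRN and DCTN6 lie close together on the short arm, and their U266 arrays stood apart from all other parental arrays.

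They are part of a run of low short-arm genes in U266. From INTS10 to WRN, a stretch chosen after the values were seen, 11 of 13 listed genes passed as lower in parental U266 and 1 as higher. Their median was -0.83. Among all tested genes 41.2% were lower and 33.3% higher in parental U266. Beside WRN and DCTN6 the lower genes were PTK2B (-1.17), BIN3 (-1.08), the nuclear export receptor XPO7 (-0.98), INTS9 (-0.87), INTS10 (-0.83), GSR (-0.81), KCTD9 (-0.38), HMBOX1 (-0.33) and ELP3 (-0.24). For KCTD9 and ELP3, parental U266 had means of 7.89 and 8.62, not below RPMI8226 at 7.84 and 8.33. For PTK2B, IM-9 at 10.03 and 10.07 raised the mean of the other lines. U266, at 7.67 and 7.63, lay nearer to RPMI8226, at 8.06 and 8.14, and KMS-11, at 8.31 on both arrays. CCDC25 did not pass (-0.12), and PPP3CC, in the same stretch, was higher (0.72). The 56 unlisted genes there had a median of -0.26, with 30 lower and 12 higher. HR cells were low over the same stretch: the 13 genes had a median of -0.71 in U266-HR against the mean of the other HR lines, with 11 below 0. HR and parental U266 cells themselves differed by a median of 0.01 over these 13 genes.

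A shorter run lay further out on the short arm in RPMI8226. The stretch from TNKS to ASAH1 was again chosen after the values were seen. Against the mean of the other parental lines, 6 of its 7 listed genes were lower in parental RPMI8226, with a median of -0.49. Among all tested genes 36.4% were lower and 43.4% higher in that comparison. The 18 unlisted genes of the stretch had a median of -0.55. PCM1 (-1.11), TNKS (-0.81), VPS37A, an ESCRT-I subunit (-0.72), CNOT7 (-0.49), MTMR9 (-0.45) and ASAH1 (-0.45) were the 6, and NEIL2 did not pass (0.14). For ASAH1, parental RPMI8226 at 9.45 and 9.37 was not below KMS-11 at 9.11 and 9.18 or clearly below IM-9 at 9.24 and 9.41. U266, at 11.17 and 11.07, raised the mean of the other lines for that gene. RPMI8226-HR against the other HR lines gave a median of -0.38 for the 7 genes, while RPMI8226-HR and parental cells differed by a median of 0.04. Of the 7, 0 passed as lower and 0 as higher in HR cells of the line.

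At the far end of the long arm the direction was opposite. Parental RPMI8226 was compared with the mean of the other 3 parental lines over the last 3 blocks, from AGO2 to C8orf33. This stretch was also chosen after the values were seen. Of 87 tested genes there, 77 were higher and 2 were lower, with a median of 0.65. Among all tested genes 43.4% were higher and 36.4% lower in that comparison. Of the 3 listed genes there EXOSC4 (2.31) and PUF60 (0.20) were higher and PTK2 lower (-0.90). Against the other HR lines, RPMI8226-HR was still higher over these 87 genes, by a median of 0.51, with 82 above 0. RPMI8226 HR minus parental had a median of -0.13, with 23 genes lower and 0 higher. Among all tested genes 15.3% were lower and 10.7% higher in that contrast. U266 was the lowest line there, with 64 of the 87 genes lower and 4 higher in parental cells and a median of -0.37. For parental U266, 41.2% of all tested genes were lower and 33.3% higher.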

How the data were processed

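RNA of 16 arrays, 2 for each of 8 groups, was measured on Affymetrix gene arrays. Values are log2 intensities of 33297 probe sets, deposited by the authors and made with Affymetrix Expression Console 1.3.0 per the submitters' processing notes; background correction and normalization are not given in the sources used here. Array medians lay between 6.22 and 6.34. The design text names another array version than the platform table, whose 21214 probe sets were all found in the deposited table.

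Groups were taken from the sample titles. Probe sets with 1 symbol (19460; 1754 had several and 12083 were unnamed here) were matched by Entrez identifier to RefSeq (GRCh38.p14, 19429 matched), used only for names, chromosomes and gene order, since the build behind the array is not stated. The arms were divided at the widest gap in protein-coding gene starts between FGFR1 and UBE2V2. Per gene the probe set with the highest mean was kept, giving 18417 genes; TATDN1 was the only listed gene with 2. Genes above 6.27, the median of all values, in at least 2 arrays were tested (12639 genes).

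All 16 arrays were fitted as 8 groups with limma 3.58.1 in R 4.3.3 (lmFit and eBayes, 2-sided tests). Benjamini-Hochberg adjustment ran over all tested genes at a threshold of 0.05. Medians and counts over genes carry no test. The script was tested on simulated data. The number of arrays limits the precision. The genes, the complex lists and the comparisons were chosen with earlier results of these data known. Genes given by array followed a rule: per arm the 4 lowest and 2 highest in RPMI8226, up to 4 falls and 4 rises past the threshold without overlap in the other lines, the 3 smallest F test values, and up to 2 each way per parental line. Other filters, normalization, centring, weights, variance priors, samples, a replicate block and leaving out each array were tried.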

Additional observations from a re-analysis of the deposited data

Results flagged for a closer look

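The change in HR cells differed between KMS-11, U266 and IM-9 by the F test for 14 listed genes, and each is given with its adjusted p from limma. PTK2B had 0.000342 and CCDC25 0.000374, both with their change in IM-9. AGPAT5 had 0.00272, with a rise in U266 and IM-9, and PPP3CC 0.00321, with a fall in U266 and KMS-11. INTS9 had 0.00427, with a difference of -0.46 in IM-9 against -0.04 in KMS-11 and -0.08 in U266. RAD21, at -0.33 in IM-9, 0.04 in KMS-11 and 0.20 in U266, had 0.00584, and VPS13B, at 0.26 in IM-9, -0.02 in KMS-11 and -0.17 in U266, had 0.00915. NCOA2 had 0.0116 with its rise in IM-9, and PTK2 0.0138 with its fall in KMS-11. CHCHD7 had 0.0275, at -0.31 in IM-9, -0.14 in KMS-11 and 0.27 in U266. TNKS had 0.0338, PTDSS1 0.0338, UBE2V2 0.0368 and MTDH 0.0467. PTDSS1 and MTDH passed in no single line of the 3, at -0.15 and -0.17 in KMS-11, 0.14 and 0.12 in U266, and -0.09 and 0.07 in IM-9.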

How the results depend on the processing

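With 2 arrays per group, some calls depend on single arrays, up to a difference of -0.52 (PTK2 in KMS-11), and every HR contrast joins resistance with low oxygen. The parental counts of listed genes (41 for RPMI8226, 37 for KMS-11, 38 for U266 and 38 for IM-9) stayed within 1.5 times under every alternative run, and so did the RPMI8226 count of 21. Listed genes past the threshold in KMS-11 numbered 8 with array weights, 5 with a trended and robust variance prior and 1 without the filter, in place of 2, and 0 to 1 with an array left out. In U266 they numbered 9 with array weights and 3 without the filter, with the stricter filter or with quantile normalization again, in place of 5, and 2 to 3 with an array left out. In IM-9 they numbered 7 when only its 4 arrays entered the fit, in place of 18, and 8 to 16 with an array left out. The F test called 9 to 17 listed genes with an array left out, in place of 14.

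Arm medians moved little in size. Quantile normalization again gave 0.00 for the short arm and -0.04 for the long arm of KMS-11. With an array left out, the short-arm median ran from -0.06 to 0.03 in RPMI8226 and from -0.04 to 0.00 in KMS-11, and the long-arm median from -0.14 to -0.03 in KMS-11 and from -0.07 to -0.02 in U266. In RPMI8226 the long-arm median ran from -0.31 to -0.20. EXOSC4 in RPMI8226 ran from -0.06 to 0.14 and EIF3E from -0.07 to 0.09 with an array left out, so neither had a settled direction. Over all genes, the KMS-11 count of 1045 became 2083 with array weights and 348 to 401 with an array left out, the U266 count of 2287 became 1425 to 1476 without HR array 1, HR array 2 or parental array 1, and the IM-9 count of 4506 became 2843 from its own arrays alone. Under the stricter filter, which tested 7502 genes, the parental counts were 6254 for RPMI8226, 5740 for KMS-11 and 6003 for U266. The cause of these shifts was not tested, beyond the fewer genes or arrays that some settings use.

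Array numbers within a line were not taken to pair the samples, since the deviations of arrays with the same number correlated at 0.2049 for RPMI8226, 0.0712 for KMS-11, -0.048 for U266 and 0.1091 for IM-9. With the replicate block the listed genes past the threshold numbered 21 (RPMI8226), 2 (KMS-11), 5 (U266) and 18 (IM-9), as without it, and 13 in the F test.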

Other observations

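Larger changes on chromosome 8 lay in genes that were not listed. In RPMI8226, DOCK5, an exchange factor for Rac, was at 4.68 and 4.74 in HR against 6.87 and 6.93 in parental cells (-2.19 ± 0.08), and the secreted chaperone CLU was at 6.68 and 6.98 against 8.53 and 8.59 (-1.73 ± 0.08). SNAI2, a zinc finger repressor, rose on the long arm, with 9.27 and 9.82 in HR against 7.85 and 7.41 (1.92 ± 0.19), as did LAPTM4B, a lysosomal membrane protein (1.3 ± 0.12). NDRG1, a gene long known to be induced by hypoxia, was at 11.39 and 11.33 in KMS-11-HR against 9.79 and 9.78 in parental cells (1.58 ± 0.11) and at 9.45 and 9.43 in IM-9-HR against 6.55 and 6.07 (3.13 ± 0.11). BNIP3L, a mitophagy receptor of the short arm, was at 10.69 and 10.83 in KMS-11-HR against 9.13 on both parental arrays (1.63 ± 0.08).

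In U266-HR, IDO1, which degrades tryptophan, was at 7.51 and 7.34 against 4.44 and 4.04 in parental cells (3.19 ± 0.11), and SLA, an adaptor of antigen receptor signalling, at 9.33 and 9.38 against 6.50 and 6.35 (2.93 ± 0.13). ADAM28 (-0.95 ± 0.18) and FZD3 (-0.81 ± 0.08) fell there. SLC7A2, a transporter of cationic amino acids, fell in both KMS-11-HR (-1.27 ± 0.16) and IM-9-HR (-2.05 ± 0.16), JPH1 fell in KMS-11-HR (-1.01 ± 0.12) and PDGFRL in IM-9-HR (-1.71 ± 0.14), and CNBD1 rose in IM-9-HR (3.01 ± 0.07). The adjusted p of each of these changes was 0.0021 or less (limma). Levels of DOCK5 in RPMI8226-HR, IDO1 in parental U266, CNBD1 in parental IM-9, PDGFRL and SLC7A2 in IM-9-HR and JPH1 in KMS-11-HR lay below the filter level of 6.27 on both arrays, and NDRG1 in parental IM-9 on 1, so the sizes of those differences are uncertain.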
